A study of Mus musculus with 48 samples.

Results

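The transcripts described here encode lysosomal hydrolases, their helper proteins and proteins of the lysosomal membrane. They were chosen by name: 36 genes on a list of well-known lysosomal genes, out of 27281 rows in the expression table, of which 18178 carry a gene symbol. Each of the 36 was found as a single row. RNA-Seq was done in 48 samples of murine striatal progenitor lines, 3 samples in each of 16 conditions. STHdhQ111 cells are homozygous for a mutant huntingtin knock-in allele, a model of Huntington's disease, and STHdhQ7 cells are the wild-type counterpart. Both lines are conditionally immortalized, and each genotype is a single line, so line and genotype cannot be told apart.

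All cells spent 24 hours in serum-free medium. STHdhQ111 cells received vehicle or a protective compound. The dose was 10 µM for diacylglycerol kinase inhibitor II (DKI), loxapine, meclizine, selisistat and cyproheptadine and 5 µM for pizotifen. Cysteamine was given at 250 µM, sodium butyrate at 1 mM and 4-deoxypyridoxine (DOP) at 4 mM. Fingolimod phosphate was given at 250 nM, trichostatin A at 10 nM, nortriptyline at 1 nM, and nicotinamide and haloperidol at 0.5 nM each. STHdhQ7 cells received vehicle alone. The study's names are kept: Group A holds cyproheptadine, loxapine and pizotifen, and Group B holds meclizine with DKI. The study drew these 5 compounds together from the same expression data and split them by their metabolite profiles, so their shared response is not independent of these samples.

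Lysosomes are acidic organelles in which proteases, glycosidases, sulfatases and lipid enzymes break down proteins, glycans and lipids delivered by endocytosis and autophagy. Their membrane is protected by heavily glycosylated proteins and carries channels and transporters. Many of these genes share short promoter elements read by TFEB and related factors, which raise them together when the organelle is under load. Inherited loss of a single hydrolase causes a storage disease, often of the nervous system, and huntingtin fragments are in part cleared through this route.

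The values were read as log2 abundances, on which a difference of 1 is a doubling. How the table was transformed is not given in the sources used here, and if values were shrunk toward each gene's mean, the differences and folds understate the true ratios. Differences were tested with limma over all 13409 genes with a symbol and a mean of at least 1, with the collection day in the model, and a gene was called when its adjusted p, by the Benjamini-Hochberg method over all genes tested, was under 0.05. Errors below are the standard error of the fitted difference, with 3 samples per condition. All 36 members passed the filter, and their lowest condition mean among the STHdhQ111 conditions was 5.78. The pooled SD between replicates ran from 0.051 to 0.109 over the members, with a median of 0.074, and the spread between the lowest and highest condition mean from 0.21 for Cln3 to 0.91 for Gla, with a median of 0.46. Nothing in the labels says that replicates were separate cultures, so p-values measure the spread between these samples. As the samples are bulk RNA, a change in the make-up of the cells and in RNA per cell cannot be told apart.

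The labelled cell type was checked against markers. Vim, an intermediate filament of progenitors, stood at 15.42 in the STHdhQ111 vehicle mean and 15.60 in STHdhQ7. Nes and Sox2, which define neural progenitors, stood at 4.96 and 4.81 in STHdhQ111 and at 10.95 and 8.91 in STHdhQ7. The striatal neuron markers Bcl11b, Drd1, Adora2a and Gad1 fell below the filter. The collagens Col1a1 and Col3a1 stood at 14.63 and 12.46 in STHdhQ111. Of the 6 microglia and macrophage markers, Aif1, Cx3cr1 and Itgam were at or near the bottom of the scale, at -2.18, -1.81 and -1.70, and Csf1r stood at 1.93, while Tmem119 stood at 7.45 and Ptprc, a leukocyte phosphatase, at 10.59.

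Members rose with the 5 compounds of Groups A and B, and most of the rises were proteases, glycosidases and membrane proteins. Meclizine raised 22 members and lowered 3, where 13.1% of all genes rose and 13.6% fell. DKI raised 21 and lowered 4, against 20.4% and 21.9% of all genes. Cyproheptadine raised 20 and lowered 1, Ids, against 17.5% and 18.2%. Loxapine raised 17 and lowered 1, again Ids, against 10.1% and 11.8%. Pizotifen raised 15 and lowered 0, against 8.86% and 9.07%. The median difference of the members was 0.195 with meclizine, 0.209 with DKI, 0.186 with cyproheptadine, 0.163 with loxapine and 0.131 with pizotifen, while the median of all genes lay between -0.006 and 0.005 in these comparisons. These 5 comparisons share the vehicle samples.

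Sample by sample, the median member stood above the vehicle mean in each of the 15 samples of these compounds, by 0.089 to 0.284. Within single collection days the median difference was 0.165 to 0.264 with meclizine, 0.198 and 0.206 with DKI, 0.145 and 0.257 with cyproheptadine, 0.126 to 0.149 with loxapine and 0.117 to 0.176 with pizotifen. Counts leaned on single libraries in places: without meclizine replicate 1 the meclizine count was 16 in place of 25, and the loxapine count of 18 was 10 without vehicle replicate 1 and 11 without vehicle replicate 2. Calls over all genes fell too, from 3589 to 2520 with meclizine and from 2938 to 1715 and 2269 with loxapine. With DKI and vehicle samples alone in the fit, 13 members were called in place of 25, and 3393 of all genes in place of 5673. Meclizine, pizotifen and loxapine shared no collection slot (day and time of day) with vehicle. Against haloperidol samples of the same slots 15 members rose and 2 fell with meclizine, and 11 rose and 0 fell with pizotifen. Against nicotinamide and nortriptyline samples 19 rose and 1 fell with loxapine. Of the 13409 genes tested 3448, 1973 and 3060 were called, in that order. The median member differed by 0.149, 0.094 and 0.162. Collagen and other mesenchymal markers moved alongside: of 5 tested, 4 fell with DKI, 3 with meclizine, 3 with cyproheptadine, 1 with pizotifen and 0 with loxapine, and their summed level ran from 14.00 to 14.28 with DKI, 14.45 to 14.48 with meclizine, 14.32 to 14.51 with cyproheptadine, 14.66 to 14.80 with pizotifen and 14.83 to 15.01 with loxapine, against 14.92 to 15.12 with vehicle. Of 5 progenitor markers 1 fell with each of DKI, meclizine, cyproheptadine and loxapine and 0 with pizotifen, at summed levels of 14.79 to 15.06 with DKI, 15.16 to 15.23 with meclizine, 15.11 to 15.19 with cyproheptadine, 15.40 to 15.55 with loxapine and 15.38 to 15.45 with pizotifen, against 15.38 to 15.51 with vehicle. The progenitor sums, here and below, are set almost wholly by Vim, at 15.42 in STHdhQ111 vehicle next to 5.42 or less for the others tested. Of 2 astrocyte markers tested, 1 fell with DKI and with cyproheptadine. Of 3 microglial markers tested, 1 fell with DKI and with meclizine, 1 rose with cyproheptadine and with pizotifen, and 2 rose and 1 fell with loxapine. Of 2 oligodendrocyte markers tested, 1 rose with DKI and with meclizine. The part of these markers in the result was not tested.

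**Figure D1:**
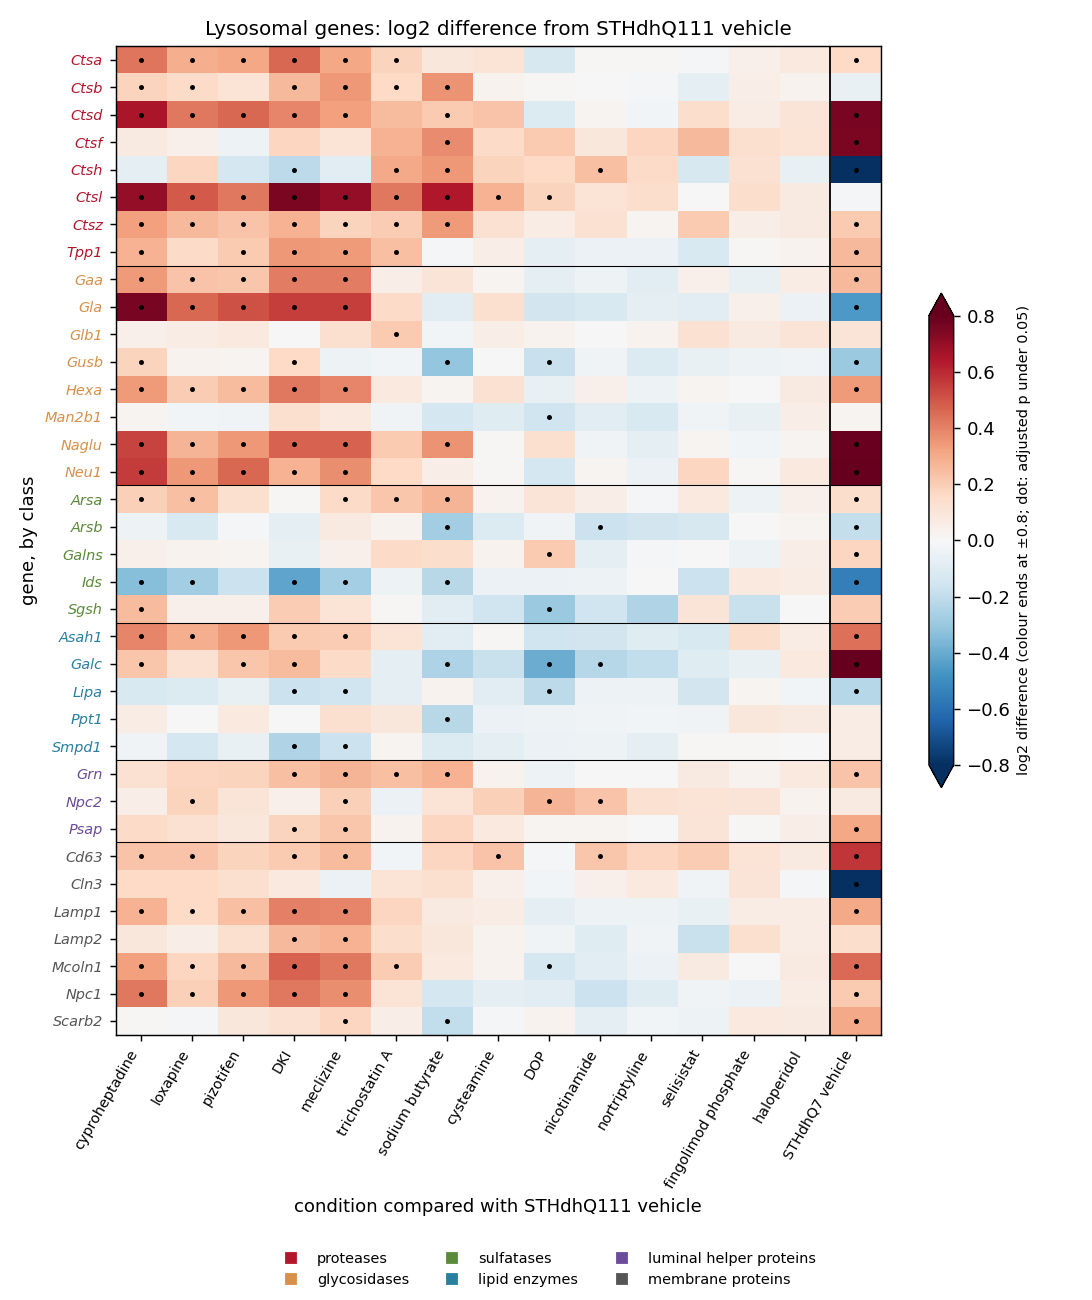
Difference in log2 abundance from the STHdhQ111 vehicle mean for the 36 genes (rows, grouped and coloured by class) in the 14 compounds and in STHdhQ7 vehicle (columns, the last set apart by a line). Red is higher, blue is lower, colours end at ±0.8, and a dot marks an adjusted p under 0.05; the protease, glycosidase and membrane rows are mostly red under the 5 leftmost compounds, while the columns of selisistat, nortriptyline, fingolimod phosphate and haloperidol hold no dot.

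Promoter sequence was looked at because so many members moved in the same direction. Of the members, 31 matched an entry of the RefSeq promoter table (GRCm38.p6, 250 bases before to 50 after each start). The letters CACGTG, a palindrome that reads the same on both strands and forms the core of the element read by TFEB, occurred in 13 of these 31 (41.9%) and in 8.09% of the 27025 genes of the table. The longer TCACGTGA, which contains it, occurred in 5 members (16.1%), Ctsa, Ctsd, Gla, Cln3 and Mcoln1, and in 1.12% of all genes. The sequences given here are those of 4 members that rose with all 5 compounds, and Glb1, which holds the same letters but rose with trichostatin A alone. Capitals mark CACGTG, and each stretch lies upstream of the gene as annotated by GENCODE. Both matches in the Gla promoter lie in its stretch. For Ctsd and Mcoln1 it holds 1 of 2 matches, and the TCACGTGA of these genes is the match outside it.
Gla, chrX:134601164-134601255, minus strand: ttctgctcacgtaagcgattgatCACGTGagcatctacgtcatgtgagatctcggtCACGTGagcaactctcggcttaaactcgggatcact
Ctsd, chr7:142388039-142388077, minus strand: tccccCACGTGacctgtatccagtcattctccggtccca
Mcoln1, chr8:3500418-3500456, plus strand: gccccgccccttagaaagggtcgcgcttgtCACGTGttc
Lamp1, chr8:13159070-13159160, plus strand: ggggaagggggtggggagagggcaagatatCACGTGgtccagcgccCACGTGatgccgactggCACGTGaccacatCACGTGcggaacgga
Glb1, chr9:114401000-114401065, plus strand: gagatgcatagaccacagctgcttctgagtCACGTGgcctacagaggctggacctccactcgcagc

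Among the members with these letters, the median difference from vehicle was 0.33 with cyproheptadine, 0.33 with meclizine, 0.40 with DKI, 0.23 with loxapine and 0.24 with pizotifen. Among the 18 matched members without them it was 0.10, 0.18, 0.17, 0.08 and 0.10 in the same order. Again in that order, 10, 9, 8, 9 and 8 of the 13 with the letters were called higher. Of the 18 without them 7, 10, 10, 5 and 5 were. Hexa, Neu1 and Ctsz rose with all 5 compounds and hold no such letters in their promoter entry. With trichostatin A the medians were 0.20 and 0.03, and between the cell lines 0.20 and 0.18. Cln3 holds the longer element and was called with none of the compounds. These values are a description without a test, and a match in a window is not a bound site.

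Proteases rose with each of the 5 compounds, 6 of 8 with meclizine, DKI and cyproheptadine and 5 of 8 with loxapine and pizotifen. Cathepsin L (Ctsl, chromosome 13, 64359337 to 64370890, minus strand) is a cysteine endopeptidase of the lysosome. It stood at 12.22, 12.21 and 12.20 with vehicle, at 12.96, 12.93 and 12.85 with meclizine and at 13.19, 12.84 and 12.85 with DKI. With the Group A compounds it stood at 12.85, 12.93 and 12.97 (cyproheptadine), 12.63, 12.70 and 12.76 (loxapine) and 12.61, 12.67 and 12.60 (pizotifen). Every treated sample lay above every vehicle sample. The log2 difference was 0.75 ± 0.0642 with DKI, a 1.68-fold rise, 0.70 ± 0.0635 with meclizine and 0.70 ± 0.0642 with cyproheptadine, with limma adjusted p of 4.82e-12, 9.81e-11 and 1.44e-10. With loxapine it was 0.49 ± 0.0635 and with pizotifen 0.42 ± 0.0635. The annotated exons of Ctsl overlap Gm49230 on the same strand and Gm47123 on the other.

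Cathepsin D (Ctsd, chromosome 7, 142375911 to 142388038, minus strand), the main aspartic protease of the lysosome, stood at 12.41, 12.42 and 12.52 with vehicle and at 13.14, 13.10 and 13.07 with cyproheptadine. It stood at 12.89, 12.88 and 12.85 with loxapine and at 12.88, 12.85 and 12.99 with pizotifen. The groups did not overlap, and the differences were 0.65 ± 0.0875, 0.42 ± 0.0865 and 0.46 ± 0.0865. With DKI it rose by 0.39 ± 0.0875, resting in part on replicate 1 at 13.05 next to 12.73 and 12.74, and with meclizine by 0.33 ± 0.0865. Cathepsin A (Ctsa), which also shields neuraminidase 1 and beta-galactosidase from degradation, rose by 0.29 with loxapine to 0.46 with DKI. Ctsz, a carboxypeptidase, rose by 0.18 with meclizine to 0.33 with cyproheptadine, and Ctsb, an abundant cysteine protease, by 0.15 with loxapine to 0.35 with meclizine, with 0.11 and no call for pizotifen. Tpp1, a tripeptidyl peptidase lost in a childhood neuronal ceroid lipofuscinosis, rose with each compound but loxapine, where the difference of 0.15 was not called.

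Cathepsins F and H did not follow. Ctsf differed by -0.04 to 0.17 with the 5 compounds and was called with none of them. Ctsh, an aminopeptidase, stood at 8.38, 8.51 and 8.57 with vehicle and at 8.12, 8.41 and 8.29 with DKI, where it was lower by 0.21 on the log2 scale (-0.21 ± 0.0762, adjusted p = 0.0213). The samples overlapped, and the call was lost without DKI replicate 1, vehicle replicate 2 or vehicle replicate 3, with adjusted p of 0.0632 to 0.197.

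**Figure D2:**
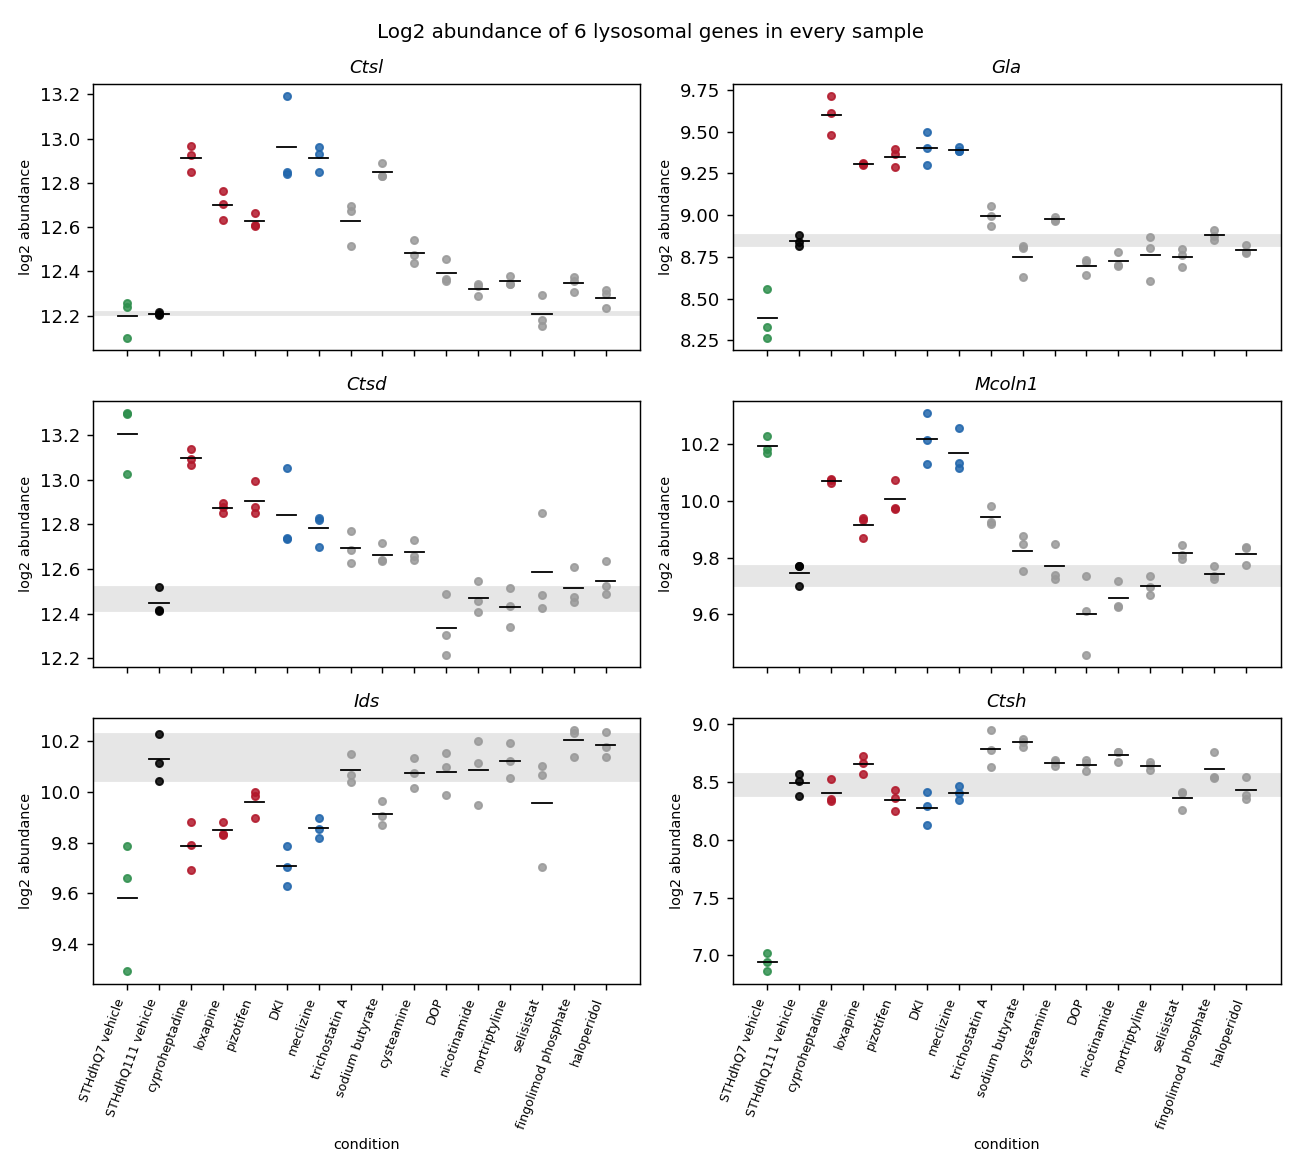
Log2 abundance of Ctsl, Gla, Ctsd, Mcoln1, Ids and Ctsh in each of the 48 samples (points), by condition, with the mean of 3 as a bar and the range of the STHdhQ111 vehicle samples in grey; the vertical axes do not start at 0. Group A is red, Group B blue, STHdhQ7 green and STHdhQ111 vehicle black; all red and blue points lie above the grey band for Ctsl, Gla, Ctsd and Mcoln1 and below it for Ids, and the STHdhQ7 points lie far below it for Ctsh, between 6.86 and 7.02.

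Of the 8 glycosidases, 6 rose with cyproheptadine and DKI and 5 with meclizine, loxapine and pizotifen, and none fell. Gla (chromosome X, 134588149 to 134601125, minus strand), the alpha-galactosidase lost in Fabry disease, moved most. It stood at 8.88, 8.81 and 8.84 with vehicle and at 9.48, 9.61 and 9.72 with cyproheptadine, a difference of 0.76 ± 0.0647 or 1.69-fold (adjusted p = 6.13e-11). With loxapine it stood at 9.31, 9.30 and 9.30, with pizotifen at 9.37, 9.29 and 9.39, with DKI at 9.50, 9.30 and 9.40 and with meclizine at 9.41, 9.38 and 9.38. All 15 treated samples lay above the vehicle samples, with differences of 0.46 ± 0.064, 0.51 ± 0.064, 0.55 ± 0.0647 and 0.55 ± 0.064. Neu1, the sialidase lost in sialidosis, rose by 0.56 ± 0.068 with cyproheptadine, 0.46 ± 0.0672 with pizotifen, 0.37 ± 0.0672 with meclizine, 0.35 ± 0.0672 with loxapine and 0.28 ± 0.068 with DKI. Its samples stood at 9.34, 9.18 and 9.34 with pizotifen, above vehicle at 8.74, 8.81 and 8.92.

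Naglu (chromosome 11, 101070012 to 101077672, plus strand), which removes N-acetylglucosamine from heparan sulfate, stood at 8.46, 8.33 and 8.44 with vehicle and at 8.93, 8.89 and 8.81 with meclizine. The difference was 0.47 ± 0.075, the same size as with DKI, next to 0.54 with cyproheptadine, 0.35 with pizotifen and 0.27 with loxapine. Hexa, the alpha subunit of the ganglioside-degrading hexosaminidase, and Gaa, the acid alpha-glucosidase lost in Pompe disease, rose with each of the 5, Hexa by 0.20 to 0.42 and Gaa by 0.22 to 0.41. Gusb, the beta-glucuronidase, rose by 0.18 with cyproheptadine and 0.16 with DKI and was not called with the others. Glb1, the acid beta-galactosidase, and Man2b1, the acid alpha-mannosidase, were called with none of the 5, at differences of 0.00 to 0.13 and -0.03 to 0.13.

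The sulfatases moved little as a class, with medians of -0.060 to 0.067 over the 5 compounds, and held the clearest fall. Ids (chromosome X, 70343069 to 70365084, minus strand) removes sulfate from heparan and dermatan sulfate. It stood at 10.23, 10.11 and 10.04 with vehicle. With DKI it stood at 9.70, 9.79 and 9.63, with cyproheptadine at 9.88, 9.79 and 9.69, with loxapine at 9.83, 9.88 and 9.83, with meclizine at 9.82, 9.90 and 9.86 and with pizotifen at 9.90, 10.00 and 9.98. The treated samples lay below the vehicle samples in each case. The differences were -0.42 ± 0.0866 (adjusted p = 0.000123), -0.34 ± 0.0866 (0.00205), -0.28 ± 0.0857 (0.0162) and -0.27 ± 0.0857 (0.0157) for the first 4, while pizotifen, at -0.17 ± 0.0857, was not called (adjusted p = 0.186). The meclizine call was lost without vehicle replicate 1 or meclizine replicate 1 (adjusted p = 0.11 and 0.0671), and the loxapine call without vehicle replicate 1 or loxapine replicate 3 (adjusted p = 0.118 and 0.0552). Arsa, which desulfates sulfatide, rose by 0.19 with cyproheptadine, 0.24 with loxapine and 0.15 with meclizine, and Sgsh, the heparan N-sulfatase, by 0.25 with cyproheptadine. Galns and Arsb, which act on keratan and dermatan sulfate, were not called with any of the 5.

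Among the 5 lipid enzymes rises and falls stood side by side. Asah1, the acid ceramidase, rose by 0.39 ± 0.0682 with cyproheptadine, 0.35 with pizotifen, 0.29 with loxapine, 0.21 with DKI and 0.20 with meclizine. Galc, which degrades galactosylceramide and is lost in Krabbe disease, rose by 0.22 with cyproheptadine and pizotifen and by 0.25 with DKI. Smpd1, the acid sphingomyelinase, fell with the Group B compounds, from 9.26, 9.24 and 9.32 with vehicle to 9.05, 9.08 and 8.98 with DKI (-0.24 ± 0.0606, adjusted p = 0.0016) and 9.15, 9.17 and 8.99 with meclizine (-0.17 ± 0.0599, adjusted p = 0.0301). Lipa, the acid lipase of cholesteryl esters, stood at 10.74, 10.67 and 10.68 with vehicle, fell to 10.52, 10.56 and 10.52 with meclizine (-0.16 ± 0.0544, adjusted p = 0.0251) and fell by 0.17 with DKI. Both meclizine calls were lost without vehicle replicate 1 or meclizine replicate 3, that of Smpd1 also without vehicle replicate 3 and that of Lipa also without meclizine replicate 1, with adjusted p of 0.0635 to 0.23 and 0.0723 to 0.119. Against haloperidol samples of the same day and time of collection the adjusted p of Lipa was 0.0558. Ppt1, a palmitoyl thioesterase, was called with none of the 5.

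Of the 7 membrane proteins, 6 rose with meclizine, 5 with DKI, 4 with cyproheptadine and loxapine and 3 with pizotifen. Mcoln1 (chromosome 8, 3500457 to 3515232, plus strand), the calcium channel TRPML1, stood at 9.70, 9.77 and 9.77 with vehicle and at 10.31, 10.13 and 10.21 with DKI. The rise was 0.47 ± 0.0527 or 1.39-fold (adjusted p = 2.43e-09), next to 0.42 with meclizine, 0.33 with cyproheptadine, 0.26 with pizotifen and 0.17 with loxapine. Npc1, which exports cholesterol from the lysosome, rose by 0.42 with DKI and cyproheptadine, 0.37 with meclizine, 0.35 with pizotifen and 0.19 with loxapine. Lamp1, an abundant glycoprotein of the limiting membrane, rose by 0.40 with DKI and 0.39 with meclizine, and by 0.16 to 0.28 with Group A. Its relative Lamp2, a receptor for chaperone-mediated autophagy in its A form, rose by 0.26 with DKI and 0.28 with meclizine and differed by 0.05 to 0.13 without a call with Group A. Cd63, a tetraspanin of late endosomes, rose by 0.21 to 0.25 with 4 of the compounds and differed by 0.18 with pizotifen without a call. Scarb2, which carries glucocerebrosidase to the lysosome, rose with meclizine alone of the 5, by 0.17. Among the luminal helper proteins, Grn (progranulin) and Psap (the saposin precursor) rose with DKI and meclizine, by 0.18 to 0.27, and Npc2, which hands cholesterol to Npc1, by 0.18 with loxapine and 0.19 with meclizine.

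Groups A and B were set against each other to ask whether the members tell them apart. Pizotifen was given at 5 µM and the other compounds of both groups at 10 µM, so group and dose are partly mixed. The groups hold 3 and 2 compounds. Their p-values and intervals rest on the spread between replicates of a compound, and the spread between compounds does not enter. Of the members, 7 were higher in Group A and 10 lower, where 19.9% and 21.4% of all genes were, so the count lies near the background. The median difference was -0.029, and -0.059, -0.024 and -0.026 within the 3 collection days. Day 1 held no cyproheptadine or DKI sample, so its median compares loxapine and pizotifen with meclizine. With the compounds labelled 10 µM alone, 7 members were higher in Group A and 10 lower, and the median difference was -0.029. Mcoln1 separated the groups fully, with 9.87, 9.97 and 10.08 as the lowest, median and highest of 9 Group A samples and 10.12, 10.17 and 10.31 of 6 Group B samples (-0.20 ± 0.0337, adjusted p = 8.8e-06). Ctsb, picked after its values were seen, did so by a narrow margin, at 12.52 to 12.68 against 12.69 to 12.81. The nearest samples stood at 12.682 and 12.693, next to a pooled SD between its replicates of 0.051. How many of all genes separate the groups fully was not counted. Ctsl ran from 12.60 through a median of 12.70 to 12.97 in Group A and from 12.84 through 12.89 to 13.19 in Group B (-0.19 ± 0.041, adjusted p = 0.000217), and the groups overlapped. Without pizotifen the limma adjusted p of Ctsl was 0.0185. Against vehicle Ctsl rose by 0.70 with both cyproheptadine and meclizine, so the difference does not hold for each pair of compounds. Lamp2 was lower in Group A by 0.18 on the log2 scale (-0.18 ± 0.0414, adjusted p = 0.000449), with medians of 12.57 and 12.75.

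In the other direction, Ctsd was higher in Group A by 0.15 ± 0.0559 (adjusted p = 0.0325), with medians of 12.89 and 12.78. That call was lost without meclizine replicate 3, cyproheptadine replicate 1, DKI replicate 2, DKI replicate 3 or pizotifen replicate 3, with adjusted p of 0.0527 to 0.124. Ctsd stood at 13.07 to 13.14 with cyproheptadine, but at 12.85 to 12.99 with loxapine and pizotifen, within the Group B range of 12.70 to 13.05. Asah1 and Neu1 were each higher by 0.14 (± 0.0436 and ± 0.0434, adjusted p = 0.00871 and 0.00927), and without DKI replicate 3 the adjusted p of Asah1 was 0.054. The groups overlapped for both, Asah1 at 11.26 to 11.64 against 11.15 to 11.41 and Neu1 at 9.15 to 9.46 against 9.01 to 9.21. Neu1 stood at 9.17, 9.21 and 9.15 with loxapine and at 9.21, 9.17 and 9.19 with meclizine, so its difference does not hold for each pair of compounds. By class, 4 of 7 membrane proteins were lower in Group A and 1 higher, 3 of 8 glycosidases lower and 1 higher, and 3 of 8 proteases lower and 2 higher. Among the lipid enzymes 2 of 5, Asah1 and Smpd1, were higher and 0 lower, and among the sulfatases 1 of 5 was higher and 0 lower. For the 19 members without a call, the 95% intervals of the difference lay between -0.25 and 0.20. Mesenchymal markers differed alongside, with 3 of 5 higher in Group A and a summed level of 14.32 to 15.01 against 14.00 to 14.48. Among the other markers, 2 of 3 microglial ones were higher, 1 of 5 progenitor ones higher and 1 lower, and 1 of 2 oligodendrocyte ones lower. Their part was not tested.

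**Figure D3:**
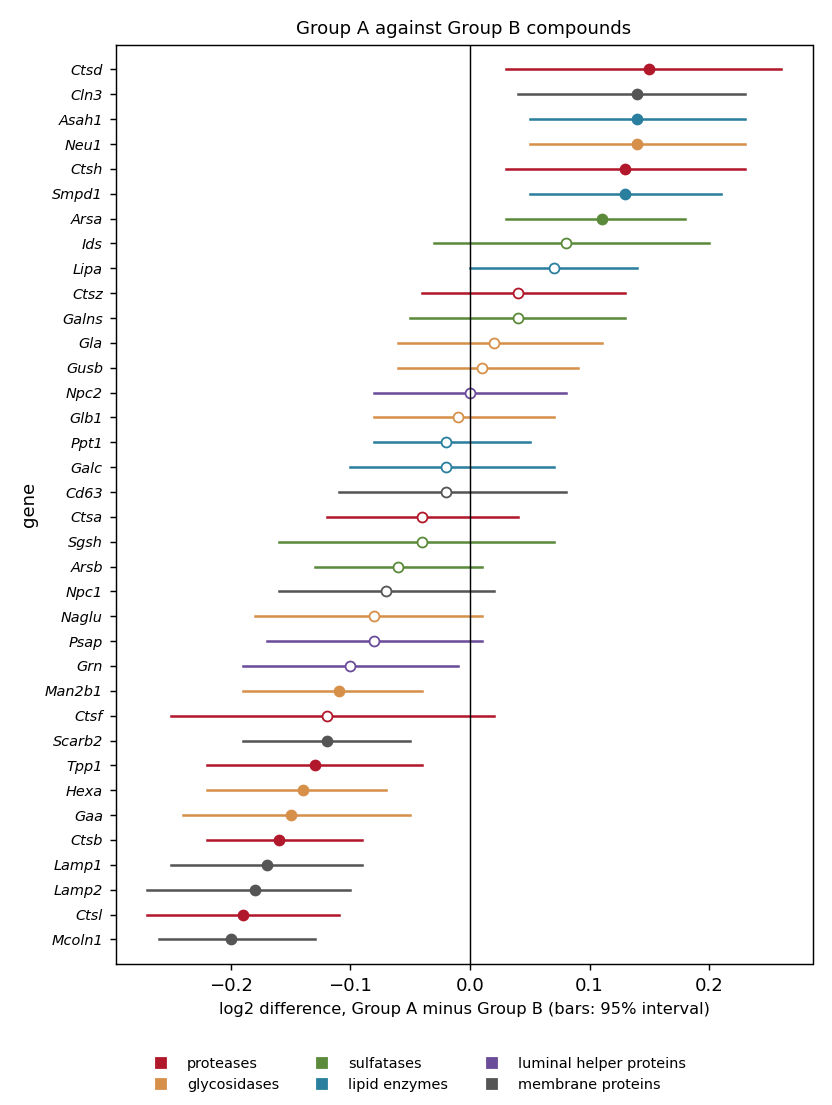
Log2 difference between the mean of the Group A compounds and the mean of the Group B compounds for each of the 36 genes, sorted, with 95% intervals as bars and colours by class; filled points had an adjusted p under 0.05. Of the filled points 7 lie right of 0 and 10 left of it, and Mcoln1 lies lowest at -0.20.

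Pairs of compounds labelled with the same dose of 10 µM were compared in 3 cases, with p-values adjusted over all genes and the 3 pairs together. Cyproheptadine exceeded loxapine, both of Group A, in 6 members and was below it in 1, against 5.23% and 5.79% of all genes. Gla was higher by 0.29 ± 0.0647 (adjusted p = 0.00174), Naglu by 0.26 ± 0.0759 (adjusted p = 0.0163) and Npc1 by 0.22 ± 0.0696 (adjusted p = 0.0279), all 3 with no overlap of samples. Ctsh was lower with cyproheptadine (-0.25 ± 0.0762, adjusted p = 0.0253), at 8.35, 8.53 and 8.34 against 8.72, 8.66 and 8.57. The median difference was 0.071 (0.133 on day 2 and 0.071 on day 3) and 28 of the 36 pointed to cyproheptadine. Gla stayed called without any single sample, while the count of 7 was 1 without cyproheptadine replicate 3 or loxapine replicate 1, 2 without cyproheptadine replicate 2, 4 without loxapine replicate 2, and 0 with these samples alone in the fit. Naglu and Npc1 were lost without cyproheptadine replicate 2, cyproheptadine replicate 3 or loxapine replicate 1, and Ctsh without cyproheptadine replicate 1 or 3 or loxapine replicate 1 or 2, with adjusted p of 0.0638 to 0.229. Cell markers moved alongside: 3 of 5 mesenchymal markers were lower with cyproheptadine (summed 14.32 to 14.51 against 14.83 to 15.01), as was 1 of 5 progenitor markers (15.11 to 15.19 against 15.40 to 15.55). The same held for 1 of 3 microglial markers. The part of these markers was not tested.

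DKI and meclizine, the pair of Group B, differed in 1 member, against 5.04% of all genes higher and 4.44% lower. Gusb stood at 9.49, 9.43 and 9.39 with DKI and at 9.22, 9.30 and 9.21 with meclizine (0.20 ± 0.0574, adjusted p = 0.0187). That call was lost, and the count was 0, without DKI replicate 1, meclizine replicate 1 or meclizine replicate 3, while without DKI replicate 2 the count was 2. The median difference was -0.033 on day 2 and 0.029 on day 3. With DKI 2 of 5 mesenchymal markers and 1 of 5 progenitor markers were lower than with meclizine, and their part was not tested. Intervals of the 35 others lay between -0.33 and 0.27, and 34 of them within ±0.3.

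Across the groups, cyproheptadine against meclizine gave 5 members higher and 3 lower, against 8.91% and 7.79% of all genes, so the counts lie near the background. Ctsd was higher with cyproheptadine by 0.32 ± 0.0875 (adjusted p = 0.0126), Gusb by 0.21 ± 0.0574 (adjusted p = 0.00982) and Cln3, a membrane protein lost in juvenile Batten disease, by 0.21 ± 0.0719 (adjusted p = 0.0477). Lamp2, Scarb2 and Ctsb were lower, by -0.20 ± 0.0648, -0.16 ± 0.0542 and -0.16 ± 0.0503 (adjusted p = 0.0411, 0.0404 and 0.0277). Without meclizine replicate 3 the count of 8 was 0, without meclizine replicate 1 it was 2, and without a cyproheptadine replicate it was 4 or 5. Cln3 was lost without any 1 of these samples, with adjusted p of 0.0595 to 0.205, and some of these fits lost Lamp2, Scarb2 and Ctsb too, at up to 0.232, 0.173 and 0.206. The median difference was 0.040 on day 2 and -0.027 on day 3. Of the cell markers, 2 of 5 mesenchymal ones were lower and 2 of 3 microglial ones higher with cyproheptadine, and their part was not tested. Cyproheptadine and pizotifen, in each of which a methylpiperidine is joined to a fused tricyclic ring, were given at 10 and 5 µM and were therefore not compared; side by side, Gla differed from vehicle by 0.76 and 0.51, Ctsl by 0.70 and 0.42 and Ctsd by 0.65 and 0.46.

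Sodium butyrate and trichostatin A, both inhibitors of histone deacetylases, had most of their rises among the proteases. Sodium butyrate raised 9 members and lowered 6, where 19.6% of all genes rose and 17.8% fell, so the counts lie near the background. Of the 9 rises 6 were proteases. Ctsl stood at 12.89, 12.83 and 12.83 (0.64 ± 0.0635 above vehicle, adjusted p = 6.24e-10). Ctsf rose from 5.86, 5.66 and 5.93 to 6.18, 6.24 and 6.18 (0.38 ± 0.105, adjusted p = 0.00381), and Naglu by 0.36 ± 0.075 (adjusted p = 0.000204). All these treated samples lay above vehicle. The falls lay in other classes: Gusb went to 8.87, 9.08 and 8.96 from 9.33, 9.22 and 9.29 (-0.31 ± 0.0568, adjusted p = 5e-05), and Arsb to 10.41, 10.52 and 10.48 from 10.83, 10.73 and 10.71 (-0.28 ± 0.0534, adjusted p = 7.1e-05). Galc fell as well (-0.25 ± 0.0676, adjusted p = 0.00399), but a collection slot (day and time of day) was not shared with vehicle for this and several other compounds: against the nicotinamide and nortriptyline samples of the same slots Galc differed by -0.03, with an adjusted p of 0.755, Arsb by -0.12 (adjusted p = 0.0425) and Ctsf by 0.25 (adjusted p = 0.0308). Ids, Ppt1 and Scarb2 fell by 0.22, 0.22 and 0.20. Within days the median over the members was 0.045 to 0.107. Cell markers moved alongside: 3 of 5 mesenchymal markers rose (summed 15.28 to 15.41 against 14.92 to 15.12), as did 2 of 3 microglial markers, 1 of 2 astrocyte, 1 of 2 oligodendrocyte and the 1 striatal neuron marker tested, while 1 of 5 progenitor markers rose and 1 fell. Their part was not tested.

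Trichostatin A raised 10 members and lowered 0, against 6.41% and 6.68% of all genes, and 6 of the 10 were proteases. Ctsl stood at 12.70, 12.67 and 12.52 (0.42 ± 0.0635, adjusted p = 1.73e-05), Ctsh at 8.95, 8.62 and 8.77 (0.30 ± 0.0753, adjusted p = 0.00649) and Tpp1 at 10.80, 10.91 and 10.88 (0.24 ± 0.0689, adjusted p = 0.0158). All were above the vehicle samples. Tpp1 differed by -0.01 with sodium butyrate, and Gusb by -0.02 with trichostatin A. The doses, 1 mM and 10 nM, are not matched and no test between these compounds was made. The trichostatin A count was 4 without vehicle replicate 1 or trichostatin A replicate 1, 5 without trichostatin A replicate 2, 6 without vehicle replicate 2, 5 against haloperidol samples of the same collection slots and 2 with trichostatin A and vehicle alone in the fit. Ctsh was lost without vehicle replicate 1 or trichostatin A replicate 1 (adjusted p = 0.0726 and 0.129), and Tpp1 without vehicle replicate 1 or trichostatin A replicate 2 (adjusted p = 0.0609 and 0.0708). The median over the members was 0.114 to 0.123 within days. Of 5 mesenchymal markers 2 rose and 1 fell, the progenitor markers summed to 15.18 to 15.28 against 15.38 to 15.51 with none of them called, and their part was not tested.

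With DOP, a vitamin B6 antagonist, 3 members were higher and 6 lower, against 8.93% and 11.2% of all genes, so the counts lie near the background. The median of -0.043 was 0.041 on day 1, -0.066 on day 2 and -0.079 on day 3. Galc fell to 7.39, 7.24 and 7.36 from 7.70, 7.80 and 7.70 (-0.40 ± 0.0676, adjusted p = 6.82e-05). Sgsh stood at 7.95, 7.53 and 7.75, below 8.04, 8.03 and 8.05 (-0.30 ± 0.0888, adjusted p = 0.0154), and Lipa at 10.49 in each sample (-0.21 ± 0.0544, adjusted p = 0.00604). Gusb, Man2b1 and Mcoln1 fell by 0.18, 0.16 and 0.14. Npc2 rose to 11.46, 11.50 and 11.46 from 11.19, 11.11 and 11.29 (0.27 ± 0.0628, adjusted p = 0.0018), Galns by 0.21 ± 0.0663 and Ctsl by 0.18 ± 0.0635 (adjusted p = 0.0218 and 0.0371). The count of 9 was 4 without vehicle replicate 1, without DOP replicate 2, against samples of the same collection slots, and with DOP and vehicle alone. Against those slot-matched samples Galc differed by -0.18 (adjusted p = 0.0376), while Npc2 differed by 0.10, Sgsh by -0.10 and Ctsl by 0.05, none of these 3 called. Leaving out single samples, Galns was lost without vehicle replicate 1 or DOP replicate 1 or 3, Ctsl without any vehicle replicate or DOP replicate 1 or 2, and Sgsh without DOP replicate 2, with adjusted p of 0.0561 to 0.208. Of 5 progenitor markers 1 rose (summed 15.61 to 15.64 against 15.38 to 15.51), and its part was not tested.

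Nicotinamide raised 3 members and lowered 2, against 2.82% and 7.59% of all genes. Ctsh, Npc2 and Cd63 rose by 0.24 ± 0.0753, 0.23 ± 0.0628 and 0.22 ± 0.0739 (adjusted p = 0.0338, 0.0157 and 0.0464), and Galc and Arsb fell by 0.23 and 0.17 (adjusted p = 0.0246 and 0.0352). All 5 calls were lost without vehicle replicate 1, vehicle replicate 2, nicotinamide replicate 2 or nicotinamide replicate 3, and that of Cd63 also without nicotinamide replicate 1, with adjusted p of 0.0514 to 0.243. Cysteamine, which empties cystine from lysosomes in cystinosis, raised 2 and lowered 0, against 2.33% and 5.5%. Ctsl stood at 12.44, 12.47 and 12.54 (0.28 ± 0.0635, adjusted p = 0.00581) and Cd63 at 13.02, 12.98 and 13.03 (0.23 ± 0.0739, adjusted p = 0.0464), above the vehicle samples. Against samples of the same collection slots Ctsl differed by 0.15 and Cd63 by 0.03, and neither was called. The count was 0 without cysteamine replicate 3 and 1 without vehicle replicate 1, vehicle replicate 2, cysteamine replicate 1 or cysteamine replicate 2. Cd63 was lost in each of these 5 fits, with adjusted p of 0.0687 to 0.209, and Ctsl without cysteamine replicate 3 (adjusted p = 0.0828). With cysteamine 1 of 5 progenitor markers rose (summed 15.64 to 15.70 against 15.38 to 15.51), as did 1 of 2 oligodendrocyte markers, and their part was not tested.

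With 4 compounds limma called 0 members. Of all genes, 0.358% were higher and 0.157% lower with selisistat, a SIRT1 inhibitor, 0.746% and 3.08% with nortriptyline, 0% and 0.0597% with fingolimod phosphate, and 0% and 0% with haloperidol. At an unadjusted p under 0.05 there were 8, 5, 4 and 0 members in the same order. Of the 13409 genes tested, 2307, 2486, 1404 and 397 fell under it. The selisistat count was 2 without selisistat replicate 1 and 5 without selisistat replicate 3. Calls over all genes went up as well in these fits, to 293 and 1151 in place of 69. With haloperidol 30 of the 36 differences were positive, the median being 0.06, but within day 3 the median was -0.008 with 16 positive. Intervals for the members reached from -0.21 to 0.32 with haloperidol, from -0.36 to 0.34 with fingolimod phosphate, from -0.42 to 0.38 with nortriptyline and from -0.34 to 0.47 with selisistat.

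The vehicle-treated cell lines were compared to show how the members stand in cells with wild-type huntingtin. In STHdhQ7, 20 members were higher and 7 lower than in STHdhQ111, where 29.2% and 26.6% of all genes were, with a median difference of 0.187. Galc (chromosome 12, 98202294 to 98259459, minus strand) stood at 9.07, 8.97 and 8.99 in STHdhQ7 and at 7.70, 7.80 and 7.70 in STHdhQ111, 2.43-fold higher (1.28 ± 0.0676, adjusted p = 5.86e-19). Neu1 stood at 9.72, 9.67 and 9.64 against 8.74, 8.81 and 8.92 (0.85 ± 0.0672, adjusted p = 7.98e-14), and Naglu at 9.16, 9.22 and 9.22 against 8.46, 8.33 and 8.44 (0.79 ± 0.075, adjusted p = 1.16e-11). None of these groups overlapped. Ctsd and Ctsf were higher by 0.76 and 0.75, Cd63 by 0.57, Mcoln1 by 0.45 and Asah1 by 0.44.

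The falls in STHdhQ7 were fewer than the rises, and both Ctsh and Cln3 fell by more than any member rose. Ctsh (chromosome 9, 90054152 to 90076089, plus strand) stood at 7.02, 6.86 and 6.95, against 8.38, 8.51 and 8.57 (-1.54 ± 0.0753, adjusted p = 5.78e-20). Cln3 (chromosome 7, 126571207 to 126585817, minus strand) stood at 5.87, 5.71 and 5.92, against 7.05, 7.19 and 7.17 (-1.31 ± 0.0711, adjusted p = 1.4e-18). Its exons overlap Apobr on the other strand. Ids stood at 9.29, 9.79 and 9.66, with replicate 1 low, and was below the STHdhQ111 samples in each (-0.55 ± 0.0857, adjusted p = 9.03e-07). Gla was lower by 0.46 on the log2 scale (-0.46) and Gusb by 0.30 (-0.30), while Ctsl, at 12.24, 12.10 and 12.26, differed by -0.01 with a 95% interval that includes 0. The median difference of the members within single days was 0.094, 0.196 and 0.232. Cell markers differed alongside, with 4 of 5 progenitor markers higher in STHdhQ7 and a summed microglial level of 9.04 to 9.56 against 10.64 to 10.89, set mainly by Ptprc, which went from 10.59 to 7.86. Tmem119 went the other way, from 7.45 to 8.68, and Aif1 was at -2.18 in both lines. In STHdhQ7 1 of 2 astrocyte markers was higher, and 1 of 2 oligodendrocyte and 1 of 5 mesenchymal markers were lower. The part of these markers in the result was not tested.

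**Figure D4:**
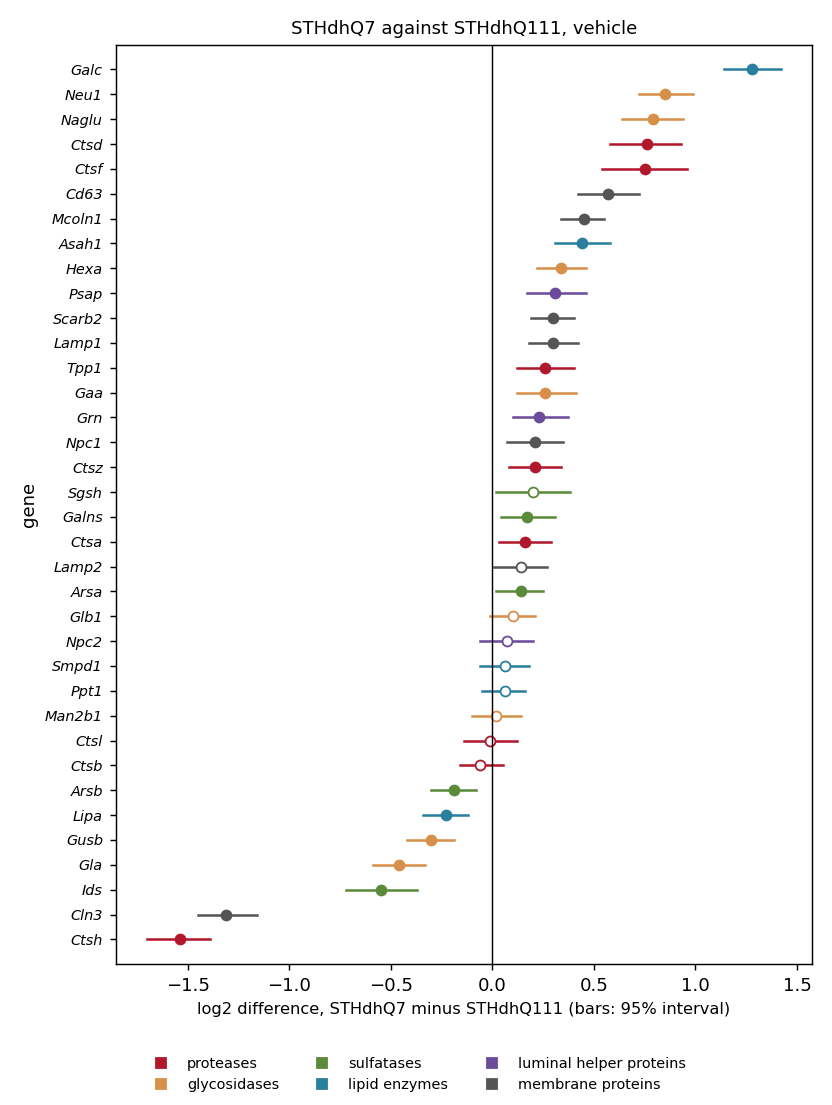
Log2 difference between STHdhQ7 and STHdhQ111 cells, both with vehicle, for each of the 36 genes, sorted, with 95% intervals as bars and colours by class; filled points had an adjusted p under 0.05. Galc stands alone at the top at 1.28, and Cln3 and Ctsh at the bottom at -1.31 and -1.54.

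A second list of 39 further lysosomal genes (transporters, sorting receptors and other enzymes), 36 of them tested, was read the same way. Of these, 15 rose and 2 fell with meclizine (13.1% and 13.6% of all genes), 17 and 4 with DKI (20.4% and 21.9%), 14 and 3 with cyproheptadine (17.5% and 18.2%), 10 and 2 with pizotifen (8.86% and 9.07%) and 6 and 5 with loxapine (10.1% and 11.8%), the loxapine counts lying near the background. Creg1 and Scpep1, a secreted lysosomal glycoprotein and a carboxypeptidase, rose by 0.66 and 0.50 with meclizine and by 0.59 and 0.56 with DKI. Dpp7, a dipeptidyl peptidase, rose by 0.52 with cyproheptadine, 0.48 with loxapine and 0.52 with pizotifen. Sort1, the sorting receptor sortilin, fell by 0.31 with meclizine, 0.51 with DKI, 0.47 with loxapine and 0.31 with pizotifen. Between the groups, where 19.9% and 21.4% of all genes were called, 3 were higher in Group A, led by Pla2g15, a lysosomal phospholipase, at 0.36, and 12 were lower, led by Scpep1 at -0.42 and Creg1 at -0.35. Sodium butyrate raised 6 and lowered 7, near the 19.6% and 17.8% of all genes. Trichostatin A raised 8 and lowered 2 (6.41% and 6.68%), and DOP raised 2 and lowered 6, with Dpp7 at -0.48 (8.93% and 11.2%). In STHdhQ7 19 were higher and 9 lower (29.2% and 26.6%), with Sort1 at 1.15 and Gm2a, the ganglioside activator, at -0.78. Nicotinamide raised 1 and lowered 2 (2.82% and 7.59%), nortriptyline lowered 4 (3.08%) and cysteamine lowered 3 (5.5%). With selisistat, fingolimod phosphate and haloperidol limma called 0 of them, and 8, 6 and 0 had an unadjusted p under 0.05. Of the 13409 genes tested, 2307, 1404 and 397 had such a p in that order.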

How the data were processed

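Poly(A) RNA was sequenced as directional, single-end libraries. Trimming by the authors was with Trimmomatic 0.36 and quantification with RSEM, against the GENCODE M12 transcriptome of GRCm38.p5. The values deposited by the authors were read as log2 abundances, since they run below 0 and, taken out of the log, give like totals in all samples (highest over lowest 1.114). Their transformation is not given in the sources used here. The file holds no read counts, so depth is unknown and no count model or counting error was used.

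All 48 samples entered a single limma fit (limma 3.58.1, R 4.3.3) with a term for each of 16 conditions and terms for collection day, moderated variances and a trend on abundance. The code was tested on simulated data. Alternatives changed the filter, the day term, the reference samples and the scaling, or left out a sample. P-values were two-sided. Described in full were up to 3 called members with the largest rise and 3 with the largest fall per comparison, and the other members by class. Of the further lysosomal genes, at most 2 rises and 2 falls per comparison were named, and Ctsb between the groups was picked after its values were seen. Members and lists were chosen with earlier results of these data known. Positions come from GENCODE M21, promoters from RefSeq (GRCm38.p6). Figures were drawn with matplotlib 3.10.9 under Python 3.11.15. Whether reads were counted by strand is not given, so reads of overlapping genes may be shared.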

Additional observations from a re-analysis of the deposited data

How the results depend on the processing

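Of 161 recomputed counts of called members in fits that left out no sample, 14 moved by over 1.5 times. With the compared samples alone in the fit, which leaves fewer samples to estimate the spread, the count was 4 in place of 9 for DOP, 2 in place of 10 for trichostatin A, 13 in place of 25 for DKI, 5 in place of 2 for cysteamine and 0 for each of the 3 pairs of compounds (7, 1 and 8). Against samples of the same collection slots it was 4 for DOP, 5 for trichostatin A and 0 for cysteamine. With no filter on low values it was 1 for cysteamine and 5 for cyproheptadine against meclizine. With the collection time as a further term it was 1 and 4 for these. Calls over all genes moved the same way in each of these fits. For cyproheptadine against meclizine with these samples alone they were 270 in place of 2239. The cause was not tested.

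Leaving out 1 sample at a time, the count ran from 24 to 28 for STHdhQ7, 16 to 22 for meclizine, 12 to 16 for sodium butyrate, 17 to 20 for cyproheptadine, 10 to 17 for loxapine, 4 to 8 for DOP, 0 to 5 for selisistat, 4 to 12 for trichostatin A, 19 to 25 for DKI, 0 to 6 for nicotinamide, 12 to 16 for pizotifen, 0 to 3 for cysteamine and 13 to 18 for Group A against Group B. It ran from 1 to 5, 0 to 2 and 0 to 6 for the pairs cyproheptadine and loxapine, DKI and meclizine, and cyproheptadine and meclizine, and was 0 throughout for nortriptyline, fingolimod phosphate and haloperidol.

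The median difference with trichostatin A was 0.077, with pizotifen 0.094 and with fingolimod phosphate -0.023, in place of 0.124, 0.131 and 0.035, against samples of the same collection slots. With a replicate block in place of the collection day the median was 0.21 for DKI and 0.195 for meclizine, and no count moved by over 1.5 times; replicate numbers share a number only, the mean correlation of deviations being -0.0487 for the same number and 0.0245 for others, with 1 of 120 pairs of conditions over 0.1 throughout. The named members kept direction and call in 917 recomputed values, lost the call in 125 and changed direction in 0. Rescaling by the median of ratios shifted samples by -0.013 to 0.003.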
